A study of Mus musculus with 18 samples.

Results

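The 10 lipid droplet genes described here across mouse liver are the perilipins Plin2, Plin3, Plin4 and Plin5, the CIDE genes Cidea, Cideb and Cidec, and the droplet regulators Fitm2, G0s2 and Hilpda. All 10 were taken by symbol from the deposited table of 19057 gene rows, where they fill 11 rows because the symbol Plin2 occurs in a pair of rows. Of the 10, 8 had a mean of at least 1 RPKM (reads scaled by transcript length and by the mapped reads of the library) over all libraries and entered the test with 10204 genes in all. Plin4 and Cidea lay below this limit and are given by their values. Row 2 of Plin2 never rose above 0.14 RPKM and was left aside.

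RNA-seq was done on liver of ICR mice at 10 weeks of age, in 6 groups of 3 libraries. The methods of the study give the mice as male. Con mice had regular diet and saline. HS mice ate a high-fat diet from an age of 3 weeks on and had 1 injection of streptozotocin (STZ, a toxin of the insulin-making beta cells) at 85 mg/kg at 5 weeks. A10-FMT and Con-FMT mice had the same diet and STZ and were given gut microbiota by mouth from 5 to 7 weeks of age. The donors' small-intestinal content had been pooled, from mice dosed with alginate oligosaccharide (AOS) at 10 mg/kg for A10-FMT and from control mice for Con-FMT. The groups A10 (AOS at 10 mg/kg) and HS+A10 (high-fat diet and STZ with AOS at 10 mg/kg) are known from the labels alone, and the time and route of their dosing are not given in the sources used here. STZ with a fatty diet lowers insulin as well as adding dietary fat, so the HS comparisons cover both together. The sources do not say that each library is a separate animal, so the p-values measure the spread between libraries.

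Fat is stored in hepatocytes as triglyceride in lipid droplets, which bud from the endoplasmic reticulum (ER) and carry a coat of proteins. Perilipins cover the droplet surface and govern the access of lipases to it, CIDE proteins bring droplets into contact and let them fuse, and FITM proteins act at the ER where droplets form. G0S2 and HILPDA are small inhibitors of adipose triglyceride lipase, which is encoded by Pnpla2. Several of these genes are known targets of the PPAR nuclear receptors, which bind fatty acids.

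On the GRCm38 assembly (mm10, the build in the submitters' processing notes) Plin4, Plin5 and Plin3 lie close together on the minus strand of chromosome 17, with 1797 bases between Plin4 and Plin5 and 159879 between Plin5 and Plin3. The starts of the 3 genes that were higher in HS than in Con are shown because the comparison of HS with Con rests on them. Each line gives the 250 bases before an annotated start from RefSeq on GRCm38.p6, read 5′ to 3′ on the minus strand, on which all 3 genes lie. Cidec is at chr6:113424634-113435760 and the bases shown at chr6:113435761-113436010. Fitm2 is at chr2:163466379-163472629 and its bases at chr2:163472630-163472879. Plin2 is at chr4:86648386-86670060 and its bases at chr4:86670060-86670309.
Cidec: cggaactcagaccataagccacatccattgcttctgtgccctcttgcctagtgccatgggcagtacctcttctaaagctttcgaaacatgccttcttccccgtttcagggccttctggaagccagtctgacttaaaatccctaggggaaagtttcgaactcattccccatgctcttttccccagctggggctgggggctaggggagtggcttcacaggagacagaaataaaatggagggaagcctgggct
Fitm2: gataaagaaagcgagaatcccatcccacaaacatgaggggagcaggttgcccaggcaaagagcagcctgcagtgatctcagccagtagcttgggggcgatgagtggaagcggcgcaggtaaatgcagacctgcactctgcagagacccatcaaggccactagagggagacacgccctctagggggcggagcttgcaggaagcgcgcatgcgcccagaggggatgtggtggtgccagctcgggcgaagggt
Plin2: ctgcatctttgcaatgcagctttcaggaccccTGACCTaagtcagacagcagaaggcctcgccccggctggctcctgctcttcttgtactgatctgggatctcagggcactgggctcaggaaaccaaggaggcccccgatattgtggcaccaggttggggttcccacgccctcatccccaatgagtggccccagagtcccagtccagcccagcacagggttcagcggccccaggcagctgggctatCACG
Motifs were searched on both strands in 300-base windows from 250 bases before to 50 after the start, for the 9 members with a window, which had 12 in all. They were the nuclear receptor site AGGTCA, its direct repeat with 1 base between the copies (known as DR1), the E-box CACGTG, and the hypoxia core ACGTG, which lies within the E-box. Capitals in the Plin2 sequence mark AGGTCA on the opposite strand, from base -218, and the first letters of an E-box that runs over the start from base -4. AGGTCA was also in windows of Plin5, and ACGTG in a window of Hilpda at -43. No member's window held the DR1, which 0.0396% of all 32851 windows held, against 16.3% for AGGTCA, 7.15% for CACGTG and 19.6% for ACGTG. The matches are descriptions of letters and no measure of binding.

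The library sums were 692818 to 806937 RPKM, and the read depth of each library, estimated relative to the mean from the steps between low values of 26 genes, was 0.958 to 1.04. The number of reads is unknown. Con replicate 3 and A10 replicate 3 stood apart. Con replicate 3 lay between the other 2 Con libraries in 93.3% of the 812 genes in which these differed by at least 1.5-fold, and A10 replicate 3 in 92.5% of 563 such genes, against 29.8% to 72.5% in the other 16 libraries. Each library was also fitted as a weighted mean of the other 2 of its group in such genes. The median absolute log2 residual was 0.0892 for Con replicate 3 and 0.0908 for A10 replicate 3, against 0.234 to 0.651 for the other 16. Replicate 1 had a weight of 0.51 in Con replicate 3 and 0.36 in A10 replicate 3. If these libraries are mixes of the others, the spread within Con and A10 is understated. What they are was not tested further, and the comparisons with Con or A10 are also given without both. Con-FMT replicate 3 held a summed 22398 RPKM of 11 pancreatic acinar markers, against 14.1 to 50.4 in the others, and Adipoq at 2.44 RPKM, against at most 0.11. Hepatocyte markers summed to 45450 to 69228 RPKM, and 7 striated muscle markers to at most 0.23.

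**Figure D1:**
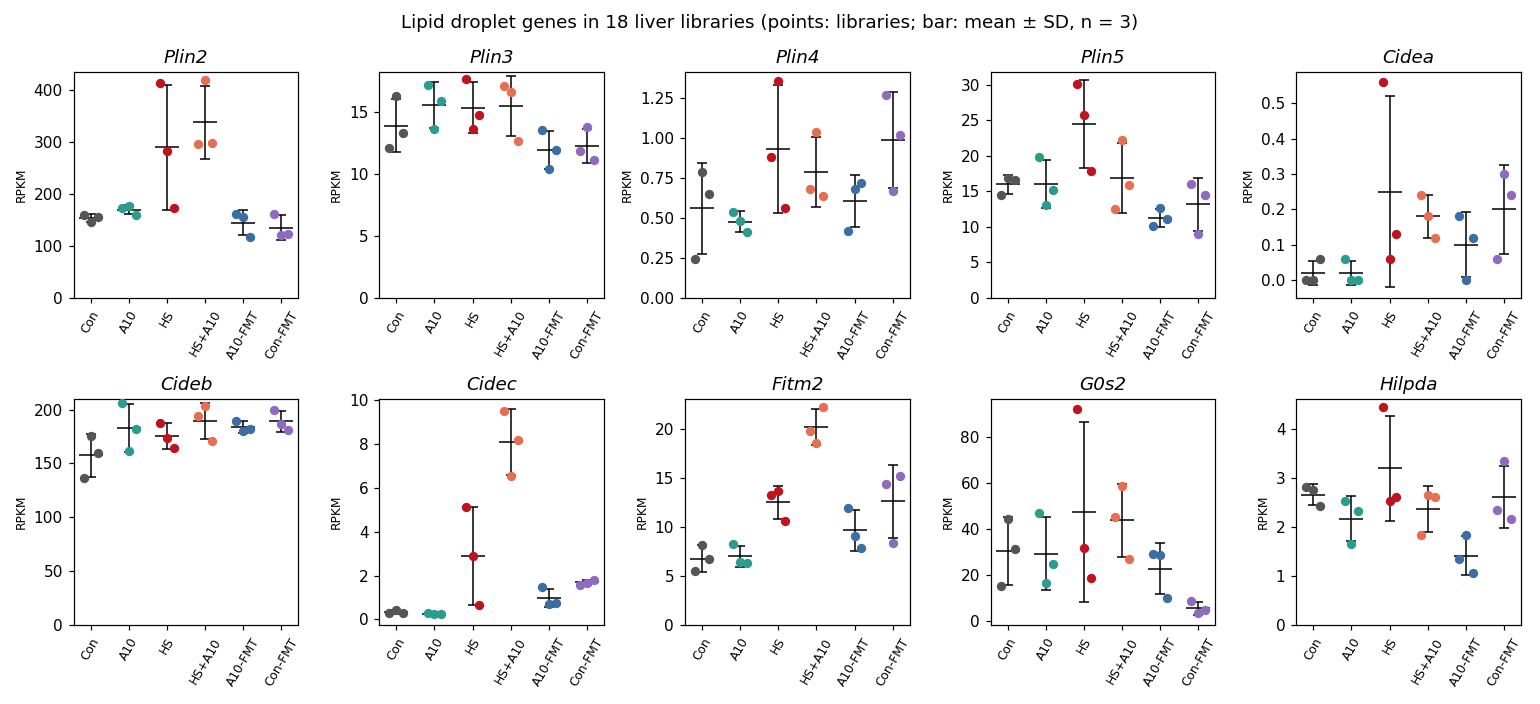
Level of each of the 10 genes in RPKM (vertical axes, a separate linear scale per gene) in 6 groups of 3 liver libraries. Points are libraries and bars are mean ± SD. Cidec lay at 0.29 to 0.44 RPKM in Con and at 6.54 to 9.51 in HS+A10, whereas Cideb lay between 136 and 206 in all libraries.

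RPKM values are per length, so levels can be set side by side between genes. Plin2 and Cideb were the abundant members, with group means of 135 to 338 and 157 to 189 RPKM. G0s2, Plin5, Plin3 and Fitm2 followed, with group means between 5.55 and 47.4 RPKM. Cidec and Hilpda had group means of at most 8.08 and 3.20 RPKM, and Plin4 and Cidea were near the floor of the table. Cidec averaged under 1 RPKM in Con (0.35), A10 (0.25) and A10-FMT (0.98), so it passed the test limit through its higher groups. Plin2 made up 81.1% to 91.3% of the summed perilipin RPKM in every library, with its highest shares in the 3 HS+A10 libraries (90.7% to 91.3%). A test of any difference among the 6 groups called 6 of the 8 tested members (limma F test, adjusted p 5.65e-05 for Cidec to 0.0235 for Hilpda), all but Cideb (0.206) and Plin3 (0.0996), where 56.1% of all tested genes were called. In this test Hilpda was not called after scaling all libraries to the same median (adjusted p = 0.0539) or after quantile normalization. Nor was it called without A10-FMT replicate 1 or 3, and Plin5 was not called without HS replicate 1 or 2.

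The comparison of HS with Con asks how diet and STZ changed these genes. Cidec, Fitm2 and Plin2 were higher in HS and the other 5 tested members were not called. A rise was called in 15.9% of the tested genes and a fall in 1.87%. These shares depend on scaling, since 1809 genes were called in all, but 884 after scaling all libraries to the same median and 876 after quantile normalization. On the log2(RPKM + 1) scale, which is used unless stated otherwise, all tested genes had a median change of 0.14 and the 8 members of 0.50.

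Plin2, the main droplet coat protein of hepatocytes, was at 159, 146 and 156 RPKM in Con and at 414, 282 and 173 in HS. The groups did not overlap, although HS replicate 3 was only a little above the Con libraries. The log2 change was 0.82 (SE 0.24, 95% interval 0.32 to 1.33, limma adjusted p = 0.0279). This call was lost when any 1 Con library, HS replicate 1 or HS replicate 2 was left out (adjusted p 0.0620 to 0.0961), and without HS replicate 1 the change itself was 0.52. It was also lost after scaling all libraries to the same median (0.64, adjusted p = 0.106), after quantile normalization (0.74, adjusted p = 0.0709) and in a fit of the 12 libraries of Con, HS, A10-FMT and Con-FMT (adjusted p = 0.0626).

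Cidec, also called Fsp27, which drives the growth of large droplets and is low in lean liver, was at 0.31, 0.44 and 0.29 RPKM in Con. In HS it was at 5.12, 2.89 and 0.65 RPKM, every library above Con but with a 7.88-fold range within the group. The log2 change was 1.34 (SE 0.31, interval 0.67 to 2.00, adjusted p = 0.0110), and the ratio of the group means was 8.33. The ratio rests on Con values near the floor, and with 0.1 in place of 1 added to RPKM the log2 change was 2.36. In a fit of HS and Con alone Cidec was not called (adjusted p = 0.0893), nor was Plin2 (0.107).

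Fitm2, which acts where droplets leave the ER, was at 5.48, 8.16 and 6.70 RPKM in Con and at 13.3, 13.7 and 10.6 in HS. It had the tightest HS libraries of the 3, with no overlap and a log2 change of 0.80 (SE 0.20, adjusted p = 0.0138). The call was lost without Con replicate 1 (0.68, adjusted p = 0.0656). An antisense gene, 2310001K24Rik, shares 227 of the 3967 exonic bases of Fitm2, and since counting by strand is not stated, their reads cannot be told apart.

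Without Con replicate 3 and A10 replicate 3, none of the 3 genes was called (adjusted p 0.0888 for Plin2, 0.0539 for Cidec and 0.0563 for Fitm2), with log2 changes of 0.83, 1.31 and 0.80. For single values of 3 libraries against 3, an exact two-sided permutation test cannot go below 0.1. Each of the 3 genes reached that value, as did Plin5, which was not called. The 3 genes had been picked by their calls in the same libraries, so this is no separate support.

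Plin5, a coat protein of oxidative tissues that tethers droplets to mitochondria, was at 14.5, 16.9 and 16.6 RPKM in Con and at 30.1, 25.7 and 17.8 in HS. The groups did not overlap, but the change was not called (0.56, SE 0.23, adjusted p = 0.0954) unless HS replicate 3 was left out (0.77, adjusted p = 0.0463). G0s2 spanned 18.5 to 92.1 RPKM in HS and 15 to 44.5 in Con and overlapped, with an interval of -0.80 to 1.68 for its log2 change. For Hilpda, Plin3 and Cideb the intervals were -0.21 to 0.55, -0.16 to 0.43 and -0.07 to 0.39.

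Plin4 (0.24 to 0.79 RPKM in Con, 0.56 to 1.36 in HS) and Cidea (0 to 0.06 and 0.06 to 0.56) overlapped or touched between the groups. In a fit of all 17837 genes above 0 in some library neither was called in HS against Con (adjusted p = 0.268 and 0.153).

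HS replicate 1 had the highest level within its group for 8 of the 10 genes and HS replicate 3 the lowest for 7. Such an order was not particular to HS, since A10 replicate 1 was highest for 9 and A10 replicate 2 lowest for 7, and Con replicate 2 was highest for 7 and Con replicate 1 lowest for 7. The coefficient of variation in HS was 41.7% for Plin2, 77.4% for Cidec and 82.9% for G0s2, against 4.46%, 23.5% and 48.8% in Con, and 13.4% for Fitm2 against 19.8%. Cideb varied by 6.87% in HS.

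**Figure D2:**
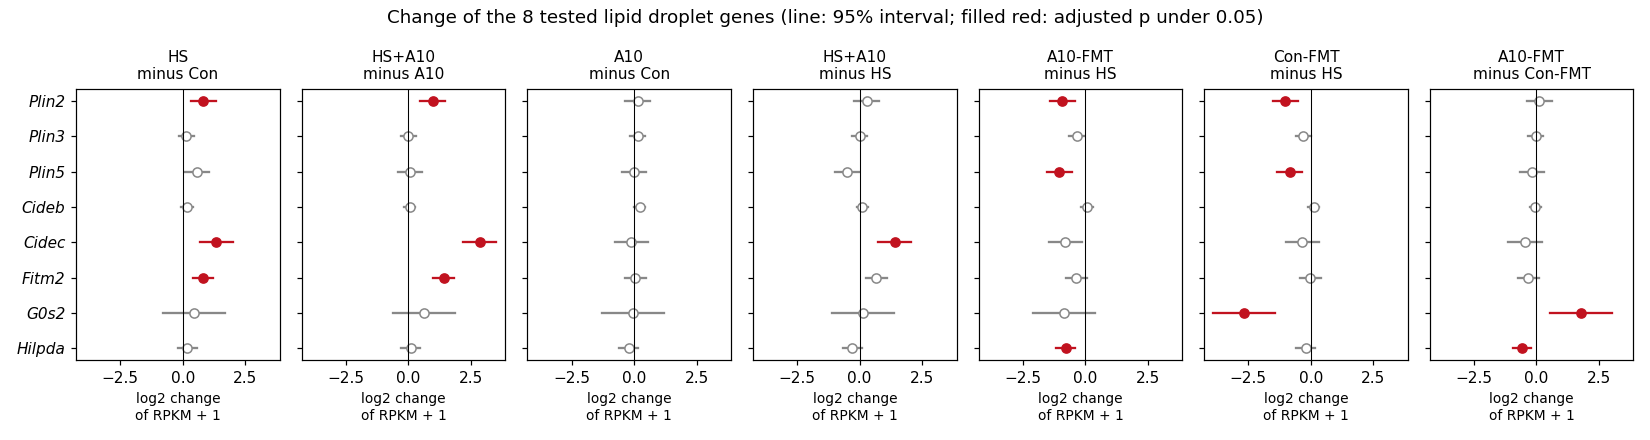
Log2 change of RPKM + 1 (horizontal axes) of the 8 tested genes in 7 comparisons, with points for the estimates and lines for 95% intervals. Filled red points have an adjusted p under 0.05, and the largest called rise is that of Cidec in HS+A10 against A10 (2.85).

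HS+A10 against A10 compares diet and STZ in mice that had AOS in both groups. The same 3 genes, Cidec, Fitm2 and Plin2, were higher, and no member was lower. Of all tested genes 13.6% were called higher and 7.28% lower, with a median log2 change of 0.04 over all genes and 0.35 over the 8 members.

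Cidec was at 0.29, 0.23 and 0.23 RPKM in A10 and at 9.51, 6.54 and 8.18 in HS+A10. The groups lay far apart, with a ratio of means of 32.3 and a log2 change of 2.85 (SE 0.31, interval 2.18 to 3.51, adjusted p = 4.30e-05). Cidec made up 0.126% to 0.142% of the summed CIDE RPKM in A10 and 3.12% to 4.67% in HS+A10.

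Fitm2 was at 8.28, 6.43 and 6.28 RPKM in A10 and at 19.9, 18.6 and 22.2 in HS+A10, again without overlap (log2 change 1.41, SE 0.20, adjusted p = 0.000240). Plin2 was at 173, 177 and 159 RPKM in A10 and at 295, 419 and 298 in HS+A10. All 3 HS+A10 libraries were above every A10 library (0.97, SE 0.24, adjusted p = 0.00935). Without Con replicate 3 and A10 replicate 3 the calls of Cidec (adjusted p = 0.00103) and Fitm2 (0.00438) remained and that of Plin2 was lost (0.0522). Plin5, with 13.1 to 19.8 RPKM in A10 and 12.6 to 22.2 in HS+A10, overlapped, and its log2 change lay between -0.43 and 0.54.

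A10 against Con shows AOS without diet and STZ. No member was called, with 0.0686% of all tested genes called (7 genes, and 1418 at an unadjusted p under 0.05). No member was under 0.05 unadjusted either, and the widest interval was that of G0s2, -1.29 to 1.19. Plin2 did not overlap, at 159.49 to 176.70 RPKM in A10 and 145.81 to 159.03 in Con (log2 change 0.14, limma adjusted p = 0.832). Both groups hold 1 of the libraries that stood apart, and without these 2 libraries 0 members and 0 of all tested genes were called.

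HS+A10 against HS asks what AOS added to diet and STZ. Cidec was higher in HS+A10 (log2 change 1.40, SE 0.31, adjusted p = 0.0171), with 2.95% of all tested genes called higher and 4.37% lower. All 3 HS+A10 libraries (6.54 to 9.51 RPKM) were above the highest HS library (5.12). The call was lost without HS+A10 replicate 1 (1.29, adjusted p = 0.0805), and without HS replicate 3 the change was 0.88 (adjusted p = 0.0304). Fitm2 did not overlap either, at 18.6 to 22.2 RPKM against 10.6 to 13.7, and fell just short of the threshold (0.66, SE 0.20, adjusted p = 0.0547), which it passed after median scaling (0.70, adjusted p = 0.0219). Plin2 overlapped (173 to 414 and 295 to 419 RPKM), with an interval of -0.21 to 0.79. Plin5 had a log2 change of -0.52 (SE 0.23, adjusted p = 0.176), and of -0.34 without HS+A10 replicate 1.

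Whether the change with diet and STZ differed between mice with and without AOS was tested directly. The difference was 1.51 for Cidec (SE 0.44, adjusted p = 0.196) and 0.61 for Fitm2 (SE 0.28, adjusted p = 0.370), and no member was called, with 0.0098% of all tested genes called (1 gene, and 1320 at an unadjusted p under 0.05). Without HS replicate 1 the difference for Cidec was 1.93 and called (adjusted p = 0.0262), and without HS replicate 3 it was 0.99 (adjusted p = 0.223). Without Con replicate 3 and A10 replicate 3 it was 1.53 (adjusted p = 0.496), and that of Fitm2 was 0.55 (adjusted p = 0.641).

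The groups also differed in the state of the circadian clock genes. Dbp, a clock output gene whose RNA swings through the day, was at 0.58 to 0.68 RPKM in Con, 0.36 to 3.41 in A10 and 1.17 to 2.22 in HS. The HS+A10 libraries had 47.3 to 97.5 RPKM, the A10-FMT libraries 48.8 to 98.8 and the Con-FMT libraries 51.8 to 55.5. Dbp was also the 1 gene called for the difference of the HS effect with and without AOS (3.92, SE 0.50, limma adjusted p = 0.00978). Of 13 tested clock genes 7 were higher and 4 lower in HS+A10 than in HS. Against HS the counts were 7 and 4 for A10-FMT but 7 and 3 for Con-FMT, and HS+A10 against A10 had 7 and 3. Between HS and Con 2 were higher (Nr1d1 2.71, Nr1d2 1.44) and 2 lower (Cry1 -0.77, Npas2 -0.59), and between A10-FMT and Con-FMT 1 was higher (Hlf 0.81). In A10 against Con 2 were higher (Nr1d1 and Nr1d2). The part of this difference in the members' values was not tested, and the time of day of sampling is not given in the sources used here.

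**Figure D3:**
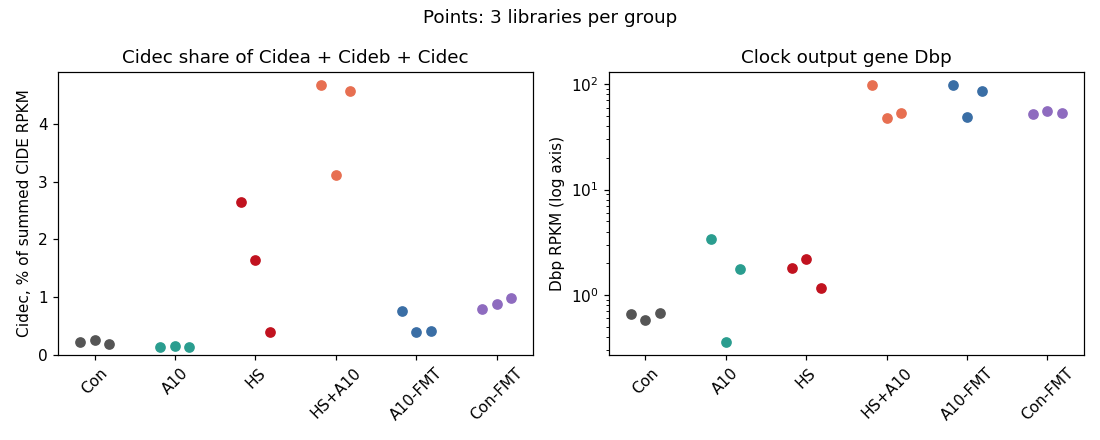
Cidec as a percentage of the summed RPKM of Cidea, Cideb and Cidec (left, linear axis) and Dbp in RPKM (right, log axis) in 6 groups of 3 libraries, 1 point per library. Cidec reached 3.12% to 4.67% in HS+A10, while Dbp was at least 47.3 RPKM in HS+A10 and both FMT groups and at most 3.41 elsewhere.

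The FMT groups were compared with HS, which both comparisons share, to see how these genes differed after microbiota transfer. The methods of the study describe no sham dosing by mouth for HS, so these comparisons cover the microbiota and the dosing together. In A10-FMT Plin2, Plin5 and Hilpda were lower than in HS and no member was higher. Of all tested genes 21% were called lower and 2.09% higher, with medians of -0.16 over the whole test and -0.79 over the 8 members. The genes called in all fell from 2358 to 1155 after median scaling and to 1114 after quantile normalization.

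Plin2 was at 161, 155 and 118 RPKM in A10-FMT, with every library below the lowest HS library (173), and its log2 change was -0.92 (SE 0.24, adjusted p = 0.0132). The call was lost without A10-FMT replicate 3 (-0.78, adjusted p = 0.0630) and after median scaling (-0.73, adjusted p = 0.0560). Plin5 was at 10.1, 12.6 and 11.1 RPKM, below all HS libraries and below all Con libraries as well (-1.03, SE 0.23, adjusted p = 0.00647).

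Hilpda, the hypoxia-inducible lipase inhibitor, was at 4.44, 2.53 and 2.62 RPKM in HS and at 1.34, 1.84 and 1.07 in A10-FMT. The groups did not overlap (-0.78, SE 0.18, adjusted p = 0.00756). Hilpda is made by macrophages as well as hepatocytes, and 8 macrophage markers summed to 59.5 to 79.0 RPKM in A10-FMT and 102 to 141 in HS, with 5 of the 8 lower. In whole liver, fewer cells of a type and less RNA per cell cannot be told apart, and the part of these cells was not tested.

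Cidec was at 1.46, 0.71 and 0.76 RPKM in A10-FMT and overlapped HS (-0.80, SE 0.31, adjusted p = 0.0732). HS replicate 3, at 0.65 RPKM, made the overlap, and without it the change was -1.32 (adjusted p = 0.00142). Without HS replicate 1 it was -0.38 (adjusted p = 0.297). Fitm2, at 11.96, 9.09 and 7.90 RPKM, overlapped HS too, with an interval of -0.77 to 0.06. Plin3 (-0.33, SE 0.14, adjusted p = 0.0932) and G0s2 (interval -2.11 to 0.37) were not called.

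In Con-FMT G0s2, Plin2 and Plin5 were lower than in HS and no member was higher, where 19% of all tested genes were called lower and 4.61% higher, with a median log2 change of -0.12 over all genes and -0.32 over the members. G0s2 was at 92.1, 31.6 and 18.5 RPKM in HS and at 8.76, 3.24 and 4.64 in Con-FMT. It was the largest change of any member in an FMT group against HS (-2.66, SE 0.58, interval -3.90 to -1.42, adjusted p = 0.00475). All 3 Con-FMT libraries were below the lowest value of G0s2 in the other 5 groups (9.76 RPKM).

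Plin2 was at 162, 120 and 122 RPKM in Con-FMT, below every HS library (-1.02, SE 0.24, adjusted p = 0.00647). Plin5 was at 16.1, 8.97 and 14.5 RPKM, also below every HS library (-0.85, SE 0.23, adjusted p = 0.0144). The Plin5 call was lost without HS replicate 1 (-0.70, adjusted p = 0.0623) or Con-FMT replicate 2 (-0.62, adjusted p = 0.0713). Cidec, at 1.59, 1.66 and 1.81 RPKM, was within the HS range and above all Con and A10 libraries, with an interval of -1.004 to 0.32 against HS. Without HS replicate 3 Cidec was called lower (-0.86, adjusted p = 0.00637), and without HS replicate 1 its change was 0.08 (adjusted p = 0.848). Fitm2, at 14.4, 8.34 and 15.2 RPKM, spanned the HS range (interval -0.44 to 0.40).

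A10-FMT against Con-FMT compares the 2 kinds of donor. G0s2 was higher in A10-FMT and Hilpda lower, where 6.72% of all tested genes were called higher and 12% lower. G0s2 was at 29.3, 28.9 and 9.76 RPKM in A10-FMT, with A10-FMT replicate 3 close to the highest Con-FMT library (8.76), and its log2 change was 1.79 (SE 0.58, adjusted p = 0.0430). Hilpda was at 2.34, 3.34 and 2.17 RPKM in Con-FMT, above every A10-FMT library (-0.58, SE 0.18, adjusted p = 0.0335). The G0s2 call was lost without A10-FMT replicate 1 or 2 or Con-FMT replicate 2 or 3 (adjusted p 0.0950 to 0.145), that of Hilpda without A10-FMT replicate 1 or 3 or Con-FMT replicate 1 or 2 (0.0516 to 0.132), and both without Con replicate 3 and A10 replicate 3 (0.0715 and 0.0568). Plin2 overlapped between the donors (interval -0.40 to 0.61), as did Plin5 (-0.66 to 0.31). Cidec did not overlap, since Con-FMT libraries had 1.59 to 1.81 RPKM and A10-FMT libraries 0.71 to 1.46, and was not called (adjusted p = 0.333). Cfd, an adipocyte gene, was at 11.7 RPKM in Con-FMT replicate 3 alone, the library with the acinar markers, against at most 2.61 elsewhere. Without this library G0s2 was not called (adjusted p = 0.0950) while Hilpda was.

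Cideb, the CIDE gene that lean liver makes most of and that loads lipid onto lipoproteins, showed no called change. Its group means were 157 to 189 RPKM, in the order Con, HS, A10, A10-FMT, HS+A10 and Con-FMT. Con (136 to 176 RPKM) did not overlap A10-FMT (180 to 190) or Con-FMT (181 to 200). The FMT groups were not tested against Con. Nop9 on the opposite strand shares 1136 of the 1488 exonic bases of Cideb, and its group means were 5.44 to 5.75 RPKM. Since counting by strand is not stated, reads from the shared bases cannot be told apart. Plin3, a coat protein found throughout the body, ranged only from 10.4 to 17.6 RPKM over all libraries.

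Genes around the droplet were read from lists written from general knowledge, and the counts are given beside the shares of all genes above. Of 8 tested lipases and their partners 2 were higher in HS than in Con, Pnpla2 (0.45, SE 0.13) and Mgll, which cleaves monoglycerides (0.55, SE 0.15), and 1 was lower, the carboxylesterase Ces1d (-1.29, SE 0.31). In HS+A10 against A10 5 of the 8 were higher, among them Pnpla2 (0.71) and Abhd6 (0.83), and none lower. In HS+A10 against HS only Pnpla2 was higher (0.52). Lipa, the lysosomal lipase, was lower than HS under A10-FMT (-0.59) and also after Con-FMT (-0.66). Abhd5, the activator of the lipase that Pnpla2 encodes, was also lower in A10-FMT (-0.31), with 1 higher and 2 lower of 8 in A10-FMT and none higher and 2 lower in Con-FMT.

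Of 12 tested genes of triglyceride synthesis 4 were higher in HS than in Con and 1 lower. Agpat3 (0.68, SE 0.09), Gpat4 (0.53, SE 0.11), Lpin2 (0.40, SE 0.12) and Mogat1 (1.02, SE 0.23) rose, and Gpam, the mitochondrial acyltransferase of the glycerol pathway, fell (-0.67, SE 0.18). In HS+A10 against A10 5 were higher, among them Mogat1 (2.13) and Agpat3 (0.62), and 2 lower. Mogat1 averaged 1.16 RPKM over the 18 libraries, just above the test limit. Mogat1 and Lpin2 were also higher in HS+A10 than in HS (1.22 and 0.74), where 3 were higher in all. Against HS, A10-FMT had 2 higher, among them Dgat2 (0.82), and 2 lower, among them Agpat3 (-0.32). Con-FMT had 4 higher, among them Lpin2 (1.04) and Lpin1 (3.75), and 4 lower.

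Of 11 tested genes of droplet assembly at the ER 1 was higher in HS than in Con (Rab3gap1 0.27, SE 0.07) and none lower. In HS+A10 against A10 2 were higher, Pcyt1a (0.50) and the seipin gene Bscl2 (0.67), and Acsl3 was lower (-1.04). Against HS none was higher and 2 were lower after A10-FMT, Rab18 and Faf2 (-0.27 each). After Con-FMT 1 was higher and 2 lower, among them Vps13c (-0.49) and Rab3gap1 (0.35). Of 13 other droplet proteins 3 were higher in HS than in Con, Hsd17b11 (1.05, SE 0.22), Ldah (0.39, SE 0.08) and Mettl7b (0.53, SE 0.16). Hsd17b11, a dehydrogenase that sits on droplets, was also higher in HS+A10 than in A10 (1.66) and than in HS (0.82), while Nsdhl, of cholesterol synthesis, was lower in HS+A10 than in A10 (-2.85). Spg20 (-0.43) and Mettl7b (-0.47) were lower in A10-FMT than in HS, and none was called in Con-FMT.

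The PPAR alpha targets are genes of fatty acid oxidation for the most part. They had the most called genes of any list in HS against Con and in HS+A10 against A10. The clock genes had more in HS+A10, A10-FMT and Con-FMT against HS. Of 22 tested PPAR alpha targets 17 were higher in HS than in Con and none lower, with a median log2 change of 0.88. Among them were Cyp4a10 (5.20, SE 0.80), Cyp4a14 (5.41, SE 0.92), Cpt1a (1.15, SE 0.19), Cpt2 (0.73), Ucp2 (1.06), Angptl4 (1.15), Creb3l3 (0.56), Fads2 (0.83), Acadl (0.68), Slc25a20 (0.72), Acot2 (1.21), Vnn1 (2.34), Acadm (0.71), Ehhadh (0.93), Fgf21 (1.61) and Acot1 (1.06). Cyp4a10, a fatty acid hydroxylase, averaged 2.27 ± 0.85 RPKM in Con and 153 ± 106 in HS (SD, n = 3). In HS+A10 it averaged 636 ± 199 RPKM.

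In HS+A10 against A10 17 of the 22 were higher, among them Cyp4a10 (6.07) and Creb3l3 (0.89), and 1 lower (Pdk4, -0.95), with a median of 0.94. In HS+A10 against HS 8 were higher and none lower, among them Acot1 (1.73) and Acaa1b (1.24). Against HS, 7 were lower and none higher in A10-FMT, among them Ucp2 (-0.90) and Cpt1b (-0.45). In Con-FMT 8 were lower, among them Cpt1b (-0.48) and Cpt2 (-0.46), and 1 was higher. In A10 against Con none was called.

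**Figure D4:**
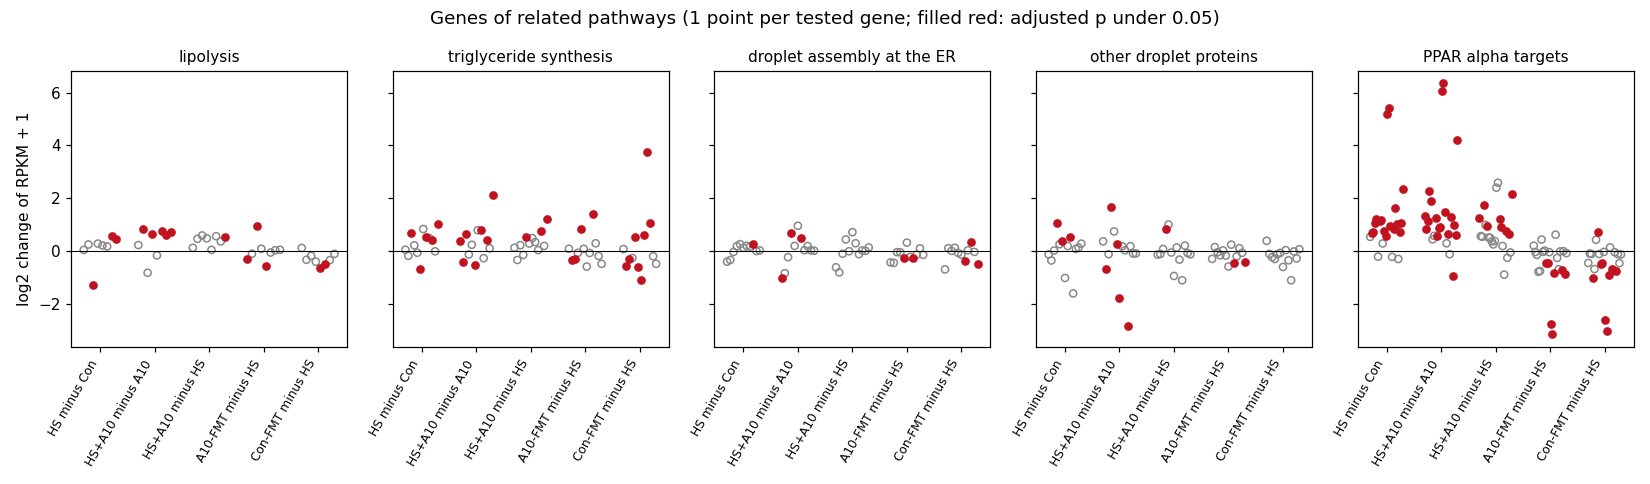
Log2 change of RPKM + 1 (vertical axis) of each tested gene of 5 lists in 5 comparisons, 1 point per gene. Filled red points have an adjusted p under 0.05, and 17 of 22 PPAR alpha targets were called higher in HS than in Con, against 2 of 8 lipolysis genes.

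Stellate cells store retinyl esters in droplets of their own. Their 9 markers summed to 91.1 to 107 RPKM in Con and 156 to 225 in HS, and 4 were called higher in HS, namely Dcn (0.83), Rgs5 (0.85), Colec11 (1.19) and Reln (0.60). The sums were 160 to 171 RPKM in HS+A10 and 106 to 122 in A10. In the FMT groups, where Plin2 and Plin5 were lower than in HS, they were 118 to 148 (A10-FMT) and 116 to 140 (Con-FMT). Dcn was lower than HS in both (-0.48, adjusted p = 0.0120, and -0.53, adjusted p = 0.00622), Rgs5 in A10-FMT (-0.52, adjusted p = 0.0127), and Colec11 (-0.66, adjusted p = 0.0192) and Lrat (-0.35, adjusted p = 0.0488) in Con-FMT. Of the adipocyte markers Adipoq, Plin1, Lep and Ucp1 were at or near 0 in HS and HS+A10, at most 0.11 RPKM, and Retn and Adig were at most 0.15 there. The other 3 of the 9 were not near 0 throughout. Cfd was at 2.61, 2.46 and 1.33 RPKM in HS+A10, where Cidec and Fitm2 were highest, and at most 0.32 in Con, A10 and HS, and its change was not called (HS+A10 against A10 1.42, SE 0.63, adjusted p = 0.130). Fabp4 was at 7.31 to 8.84 RPKM in Con and 10.2 to 20.9 in HS (0.73, adjusted p = 0.0309), and at 7.92 to 10.4 in A10 and 18.5 to 23.3 in HS+A10 (1.11, SE 0.21, adjusted p = 0.00214). Car3, which hepatocytes also make, was at 1304 RPKM or more in every library and lower in HS than in Con (-0.95, adjusted p = 0.00639). The part of these cells in the members' values was not tested beyond these levels.

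Over the 18 libraries, the genes whose log2(RPKM + 1) ran most like that of the 3 members with the widest range of group means are named as a description, with all libraries of 6 groups shared by both genes of a pair. Cidec ran most like Mogat1 (Pearson r = 0.95, Spearman rho = 0.90), then Psap (r = 0.94) and Enc1 (r = 0.94). Mogat1 and Enc1 averaged 1.16 and 1.25 RPKM over the 18 libraries, just above the test limit. G0s2 ran most like Pllp (r = 0.91, rho = 0.80), Xrcc1 (r = 0.90) and Itgb5 (r = 0.89). Fitm2 ran most like Scyl2 (r = 0.95, rho = 0.91), Morf4l1 (r = 0.95) and Hsd17b4 (r = 0.95).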

How the data were processed

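Liver mRNA was enriched with oligo(dT) beads and sequenced. The authors mapped reads to reference genes and deposited RPKM values with 2 decimals. The study's methods name SOAPaligner 2.20, while the submitters' processing notes name Bowtie 0.12.2 and mm10. Counting by strand is not stated. No counts were used here, so no interval for depth was computed.

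RPKM were transformed as log2(RPKM + 1) in R 4.3.3 and tested with limma 3.58.1 (1 mean per group, all 18 libraries, variance trend, two-sided, Benjamini-Hochberg over the 10204 genes that averaged 1 RPKM or more). The threshold was an adjusted p of 0.05. The script was tested on simulated data. Single values had an exact permutation test (scipy 1.17.1). The study's DEGseq was not used, since it takes no account of replicate spread. Alternatives covered the pseudocount, filter, scaling, libraries and threshold, and leaving out Con replicate 3 and A10 replicate 3 was chosen after seeing the data.

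The members and lists were chosen with earlier results of these data known. From each list, genes called in HS against Con are named, otherwise those with the smallest adjusted p. Acsl3, Pdk4, Nop9, Cfd, Adipoq, Plin1, Lep, Ucp1, Retn, Adig, Car3 and Fabp4 are named in addition, with their values known. Some genes that this rule names are not reported here.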

Additional observations from a re-analysis of the deposited data

How the results depend on the processing

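Of 73 counts of called members under alternatives other than leaving out 1 library, 57 were within 1.5 times the reported count. This limit takes in 2 against 3, as for HS against Con after median scaling, where Plin2 was lost. It also takes in 0 against 0, as for A10 against Con, so the tally is a loose measure. With only the 2 compared groups in the fit, the count was 1 for HS against Con, 0 for HS+A10 against HS, 1 for A10-FMT against HS, 1 for Con-FMT against HS (Fitm2, none, Plin5 and G0s2 in this order) and 0 for A10-FMT against Con-FMT. At the study's threshold (adjusted p of at most 0.001 and a log2 change of at least 1) it was 0 in each of these 5 comparisons. HS+A10 against HS had 2 called members under quantile normalization and under median scaling. A10-FMT against Con-FMT had 0 without a filter, with the 12 libraries of the study's 4 groups, and without Con replicate 3 and A10 replicate 3, and HS against Con had 0 without these 2 libraries. Leaving out 1 library at a time gave 1 to 4 for HS against Con, 0 to 1 for HS+A10 against HS, 0 to 1 for A10-FMT against Con-FMT and 0 to 1 for the difference of the HS effect with and without AOS. The cause of these shifts was not tested, and the smaller fits also hold fewer libraries.

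Same-numbered libraries did not deviate together (45 pairs, r -0.13 to 0.26), so the numbers were not used as pairs. With the replicate number as a block the counts were 3 for HS against Con, 3 for HS+A10 against A10 and 1 for HS+A10 against HS, as without it, and no call of a member changed in any comparison. Of 35 member changes at an unadjusted p of at least 0.05, 19 changed sign under at least 1 alternative and 2 were called under at least 1, and none of the 23 other changes changed sign. The number of reads is not known here, so levels near 0, such as those of Cidea and Plin4, carry no counting limit.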
